A study of Mus musculus with 12 samples.

Results

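The 10 genes described here make and load major histocompatibility complex (MHC) class II molecules in the mouse duodenum: H2-Aa, H2-Ab1, H2-Eb1, Cd74, H2-DMa, H2-DMb1, Ciita, Ctss, H2-Oa and H2-Ob. They were chosen by name from the class II pathway, and every probe whose accession mapped to one of them was taken, which gave 15 probes. All 10 members passed the filter on dim probes and were well above background on all 12 arrays, and they stand among 15583 named genes and 26107 features tested. Whole-duodenum RNA of 12 male mice was hybridised to one-colour Agilent arrays, 1 array per mouse. The 4 groups of 3 mice were Akp3-/- mice (IAP-KO, here KO) given the pentapeptide IIAEK, KO mice given vehicle, wild-type (WT) mice given IIAEK and WT mice given vehicle. Mice were 7 weeks old and received 600 mg of IIAEK per kg of body weight by mouth each day for 14 days, or the carboxymethylcellulose sodium vehicle alone at 5 g/L. All mice were fasted for 8 h before the duodenum was taken. The Akp3 product is an intestinal alkaline phosphatase of the duodenal brush border. Some source labels give weeks in place of days, and the days of the titles and the design are used. The strain and the way the knockout was made are not given in the sources used here. Class II genes differ in sequence between mouse strains, and how well the probes match the alleles of these mice was not tested.

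MHC class II molecules show peptides from the endosomal pathway to CD4+ T cells. An alpha chain and a beta chain (H2-Aa with H2-Ab1 for I-A, and H2-Eb1 as the beta chain of I-E) pair in the endoplasmic reticulum around the invariant chain, Cd74, which fills the groove and directs the complex to endosomes. There cathepsin S, the product of Ctss, trims the invariant chain. H2-DM, made of H2-DMa and H2-DMb1, then exchanges the remaining fragment for antigen peptides, and H2-DO, made of H2-Oa and H2-Ob, binds and restrains H2-DM, chiefly in B cells. Ciita is the coactivator that switches the class II genes on, through factors bound at conserved X and Y boxes in their promoters. In the small intestine dendritic cells, macrophages and B cells carry class II, and enterocytes can carry it as well, more so under interferon-gamma.

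The X and Y boxes link most of the members, so the promoters that hold both are shown. The RefSeq promoter table of build GRCm38.p6 gives 250 bases before to 50 bases after each gene start. Both strands were searched for the X core CNNGNAAC followed, after 20 to 30 bases, by the Y core GATTGG. The search letters were set after the promoters of the members had been read. The pair was found in H2-Aa, H2-Eb1, H2-DMb1, H2-Oa and H2-Ob. In these 5 promoters the cores lay 24 to 27 bases apart in the same orientation as the gene, with the Y core 44 to 62 bases before the start. Each line runs 5′ to 3′ along the gene's strand, and capitals mark the X core and then the Y core.
H2-Aa, chr17:34287847-34287927, minus strand: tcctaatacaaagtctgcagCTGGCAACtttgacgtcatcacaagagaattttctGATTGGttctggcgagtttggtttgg
H2-Eb1, chr17:34305753-34305832, plus strand: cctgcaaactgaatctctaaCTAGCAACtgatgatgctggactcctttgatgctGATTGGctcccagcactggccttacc
H2-DMb1, chr17:34153074-34153154, plus strand: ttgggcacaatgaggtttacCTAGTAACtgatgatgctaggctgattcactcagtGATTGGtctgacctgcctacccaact
H2-Oa, chr17:34092280-34092360, plus strand: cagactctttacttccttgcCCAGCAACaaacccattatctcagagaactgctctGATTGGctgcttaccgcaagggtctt
H2-Ob, chr17:34238795-34238872, plus strand: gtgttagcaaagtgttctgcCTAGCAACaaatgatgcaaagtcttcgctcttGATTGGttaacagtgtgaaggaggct

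Of all 32851 promoters in that table, 42 (0.128%) held the pair and 16.1% held the Y core alone or with the X core. The windows of H2-DMa and Ctss did not hold the pair in these letters, and no promoter of H2-Ab1, Ciita or Cd74 is shown. H2-Oa, H2-DMa, H2-DMb1, H2-Ob, H2-Ab1, H2-Aa and H2-Eb1 are 7 neighbours in the MHC on chromosome 17. Ciita lies on chromosome 16, Ctss on chromosome 3 and Cd74 on chromosome 18.

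Levels below are log2 processed intensity minus the array's 75th percentile, so that a level of 0 is the 75th percentile of that array and a difference of 1 is a doubling of intensity. Levels of 1 gene are compared across arrays, never with those of another gene, since probes differ in brightness. On each array 56.0% to 64.0% of probes exceeded background clearly. Akp3 was between -4.90 and -3.80 on the 6 KO arrays and between 1.05 and 2.72 on the 6 WT arrays, as the genotype labels say. Enterocyte markers, which define the labelled tissue, were high on all arrays, with a mean over 8 genes of 7.35 to 8.11. Pancreas markers averaged 6.56 to 8.85 on 11 arrays, over 13 genes, against 1.75 on WT vehicle replicate 1. Stomach and Brunner gland markers averaged 3.85 to 5.66, over 9 genes, on KO IIAEK replicate 3, KO vehicle replicate 1, WT IIAEK replicate 3 and all WT vehicle arrays, and -2.41 to -1.11 on the others. B cell markers averaged -2.43 to -1.45 on 10 arrays, over 8 genes, against 0.78 and 0.20 on WT vehicle replicates 1 and 2. The arrays thus differed in markers of other cells and tissues, and in whole-tissue samples fewer cells of a type and less RNA per cell cannot be told apart.

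No class II gene passed the test in any comparison of KO with WT or of IIAEK with vehicle. H2-Ab1, H2-Eb1, Cd74 and H2-DM were high in KO vehicle replicate 2 and KO IIAEK replicate 3 and lowest in WT IIAEK replicate 2. H2-Aa shared the high and the low mouse but was 3.27 in KO IIAEK replicate 3, below its median of 3.35. H2-Oa and H2-Ob had another pattern: they were high in 2 of the 3 WT vehicle mice and lower in the third and in the other groups. Pooled within-group SDs were between 0.25 (H2-Eb1) and 0.91 (H2-Ob) on the log2 scale.

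**Figure D1:**
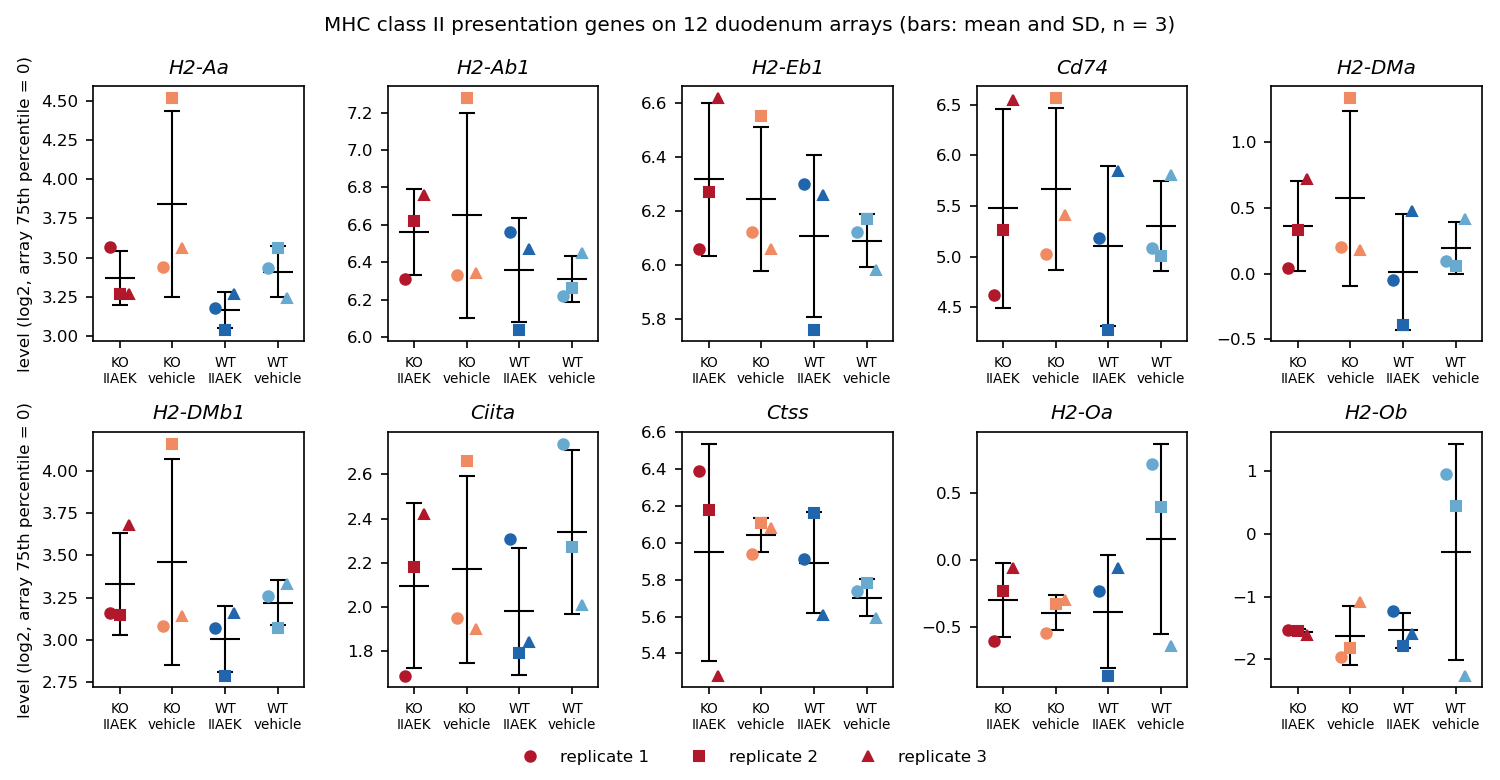
Level of each member on the 12 arrays, as log2 processed intensity relative to the array's 75th percentile, with each group's mean and SD (n = 3) as bars and marker shapes for replicates 1 to 3. The axes differ between panels, and each panel has its own range. In the panels of H2-Aa, H2-Ab1, H2-DMa and H2-DMb1, KO vehicle replicate 2 stands above the other 11 arrays, and in the panels of H2-Oa and H2-Ob the WT vehicle replicates 1 and 2 stand above the rest.

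H2-Aa, the I-A alpha chain, had levels of 3.57, 3.27 and 3.27 in KO IIAEK, 3.44, 4.52 and 3.56 in KO vehicle, 3.18, 3.04 and 3.27 in WT IIAEK, and 3.43, 3.56 and 3.24 in WT vehicle. One KO vehicle mouse was high and its 2 group mates lay within the range of the WT vehicle mice or at its upper edge. The group means were 3.37 ± 0.17 in KO IIAEK, 3.84 ± 0.59 in KO vehicle, 3.16 ± 0.12 in WT IIAEK and 3.41 ± 0.16 in WT vehicle (SD, n = 3 each). In the order of the means, KO vehicle came first, then WT vehicle, KO IIAEK and WT IIAEK, and the SDs of neighbours in that order overlap.

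H2-Ab1, the I-A beta chain, had levels of 6.31, 6.62 and 6.76 in KO IIAEK, 6.33, 7.28 and 6.34 in KO vehicle, 6.56, 6.04 and 6.47 in WT IIAEK, and 6.22, 6.26 and 6.45 in WT vehicle. The same KO vehicle mouse was highest, and WT IIAEK replicate 2 was lowest. All 4 H2-Ab1 probes put the highest level in KO vehicle replicate 2 and the lowest in WT IIAEK replicate 2. H2-Eb1, the I-E beta chain, had levels of 6.06, 6.27 and 6.62 in KO IIAEK, 6.12, 6.55 and 6.06 in KO vehicle, 6.30, 5.76 and 6.26 in WT IIAEK, and 6.12, 6.17 and 5.98 in WT vehicle. Its 4 groups overlapped, with means of 6.32 ± 0.28 in KO IIAEK, 6.24 ± 0.27 in KO vehicle, 6.10 ± 0.30 in WT IIAEK and 6.09 ± 0.10 in WT vehicle (SD, n = 3 each).

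Cd74, the invariant chain, spread over 2.28 log2 units, which was the widest range of the members other than H2-Ob. Its levels were 4.62, 5.26 and 6.55 in KO IIAEK, 5.03, 6.57 and 5.41 in KO vehicle, 5.18, 4.28 and 5.85 in WT IIAEK, and 5.09, 5.01 and 5.81 in WT vehicle. The group means were 5.48 ± 0.98 in KO IIAEK, 5.67 ± 0.80 in KO vehicle, 5.10 ± 0.78 in WT IIAEK and 5.30 ± 0.44 in WT vehicle (SD, n = 3 each). The means span 0.56, which is less than the pooled within-group SD of 0.78.

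The H2-DM subunits, which load peptide, followed the same mice. H2-DMa had levels of 0.04, 0.33 and 0.72 in KO IIAEK, 0.20, 1.34 and 0.18 in KO vehicle, -0.05, -0.39 and 0.48 in WT IIAEK, and 0.10, 0.06 and 0.42 in WT vehicle. H2-DMb1 had levels of 3.16, 3.15 and 3.68 in KO IIAEK, 3.08, 4.16 and 3.14 in KO vehicle, 3.07, 2.79 and 3.16 in WT IIAEK, and 3.26, 3.07 and 3.33 in WT vehicle. For both subunits KO vehicle replicate 2 was highest, KO IIAEK replicate 3 came next and WT IIAEK replicate 2 was lowest. H2-DMb1 has a close neighbour copy, H2-DMb2, and how far its transcript binds this probe was not tested.

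Ciita, the coactivator, had levels of 1.69, 2.18 and 2.42 in KO IIAEK, 1.95, 2.66 and 1.90 in KO vehicle, 2.31, 1.79 and 1.84 in WT IIAEK, and 2.74, 2.27 and 2.01 in WT vehicle. It was highest in WT vehicle replicate 1, followed by KO vehicle replicate 2, and its groups overlapped. A dimmer second Ciita probe disagreed with the first in the direction of KO against WT under vehicle, with a log2 difference of 0.23 (SE 0.36), against -0.17 (SE 0.27) for the first.

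Ctss, the cathepsin that trims the invariant chain, did not follow the chains. Its levels were 6.39, 6.18 and 5.28 in KO IIAEK, 5.94, 6.11 and 6.08 in KO vehicle, 5.91, 6.16 and 5.61 in WT IIAEK, and 5.74, 5.78 and 5.59 in WT vehicle. KO IIAEK replicate 3, which was high for Cd74, was the lowest array for Ctss. All 3 KO vehicle mice lay above all 3 WT vehicle mice, with means of 6.04 ± 0.09 in KO vehicle and 5.70 ± 0.10 in WT vehicle (SD, n = 3 each). Ctss was 1 of 10 members without overlap in that comparison, where 14.4% of all features had none.

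H2-Oa and H2-Ob, the subunits of the H2-DM inhibitor H2-DO, set WT vehicle replicates 1 and 2 apart. H2-Oa had levels of -0.60, -0.23 and -0.06 in KO IIAEK, -0.54, -0.33 and -0.30 in KO vehicle, -0.23, -0.86 and -0.06 in WT IIAEK, and 0.72, 0.40 and -0.64 in WT vehicle. H2-Ob had levels of -1.53, -1.55 and -1.62 in KO IIAEK, -1.97, -1.82 and -1.08 in KO vehicle, -1.23, -1.79 and -1.60 in WT IIAEK, and 0.96, 0.44 and -2.26 in WT vehicle. The third WT vehicle mouse had the lowest H2-Ob of all 12, so the WT vehicle group held both ends of the range and overlapped every other group. The H2-Ob means were -1.57 ± 0.05 in KO IIAEK, -1.62 ± 0.48 in KO vehicle, -1.54 ± 0.28 in WT IIAEK and -0.29 ± 1.73 in WT vehicle (SD, n = 3 each). A second H2-Ob probe, which did not pass the filter, was well above background on 2 arrays only, with -2.17 and -2.93 in WT vehicle replicates 1 and 2.

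The first comparison asks what loss of Akp3 does under vehicle. No member was called by limma at an adjusted p below 0.05, where 0.00766% of all features were (2 of 26107), and no member had an unadjusted p below 0.05, where 3.86% of features had (1007). Of the 10 members 7 had a difference above 0, with a median of 0.29, beside 54.6% of features above 0 and a median of 0.03 over all features. H2-Ob had the smallest p, with a log2 difference (KO minus WT) of -1.34 (SE 0.64, 95% confidence interval -2.74 to 0.07, limma adjusted p = 0.993). Fitted with the slide as a block it was -1.12, and it was -2.67 on the arrays of slide 1 alone and 0.82 on those of slide 2. Slide 1 held 2 KO IIAEK, 1 KO vehicle, 2 WT IIAEK and 2 WT vehicle arrays, and slide 2 held 1, 2, 1 and 1 of these groups. A group with 1 array on a slide is assumed to vary like the others, and 1 array against 1 within slide 2 is a difference between 2 mice. The 2 WT vehicle arrays high in H2-Ob are on slide 1 and the low one is on slide 2. Without WT vehicle replicate 3 the difference was -2.32 and was called (limma adjusted p = 0.024), where 18 of 26107 features were called. That array is the lowest for H2-Ob, so that a lower difference follows from leaving it out. Without WT vehicle replicate 1 the difference was -0.71, and without both WT vehicle replicates 1 and 2 it was 0.64. These 2 arrays were left out after the values had been seen, and they are the 2 highest for H2-Ob, so that a higher difference follows from their choice. For H2-Aa the difference was 0.43 (SE 0.24, 95% confidence interval -0.11 to 0.96, limma adjusted p = 0.993). With a slide block it was 0.40, with -0.05 within slide 1 and 0.80 within slide 2. Leaving out KO vehicle replicate 2 gave 0.09, whereas it was 0.63 without KO vehicle replicate 1 and 0.57 without KO vehicle replicate 3. KO vehicle replicate 2 is the highest array for 5 members, H2-Aa among them, so that a lower difference follows from leaving it out. The median over members was -0.04 without KO vehicle replicate 2, and 0.41 and 0.36 without KO vehicle replicates 1 and 3. Without WT vehicle replicates 1, 2 and 3 the median was 0.26, 0.21 and 0.29. The intervals reached 0.60 for H2-Eb1, 0.90 for H2-Ab1 and 1.57 for Cd74 at their upper ends, so differences up to these sizes lie within the error of 3 arrays a group.

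Under IIAEK, KO against WT again gave no called member, where 0.00766% of features were called (2 of 26107), and none with an unadjusted p below 0.05, where 1.31% of features had one (343). The difference was above 0 for 9 of 10 members, with a median of 0.21, beside 47.5% of features above 0 and a median of -0.01. H2-Ob was the exception at -0.03 (SE 0.64, 95% confidence interval -1.44 to 1.38). H2-DMb1 had the smallest p, with a log2 difference of 0.32 (SE 0.27, limma adjusted p = 1). With a slide block it was 0.32, which could not differ, as KO IIAEK and WT IIAEK are split alike over the slides. It was 0.23 within slide 1 and 0.52 within slide 2. H2-DMa differed by 0.35 (SE 0.32, limma adjusted p = 1), with 0.35, 0.40 and 0.25 in the same order. Without KO IIAEK replicate 3 H2-DMb1 gave 0.15 and H2-DMa 0.17, and without WT IIAEK replicate 2 H2-DMa gave 0.15. Other arrays moved them the other way: without KO IIAEK replicate 1 H2-DMb1 gave 0.41 and H2-DMa 0.52. Without WT IIAEK replicate 3 these were 0.40 and 0.58. WT IIAEK replicate 2, the array lowest for 7 members, was in the group subtracted: without it the median over members was 0.04, and without KO IIAEK replicate 3 it was 0.09. The median was 0.33 without KO IIAEK replicate 1 and 0.21 without KO IIAEK replicate 2. Without WT IIAEK replicates 1 and 3 it was 0.29 and 0.26. Every member overlapped between these groups, where 3.84% of features did not. Averaged over both treatments, 0.0192% of features were called (5 of 26107) and no member was. The averaged difference was 0.32 for H2-Aa (SE 0.17, limma adjusted p = 0.999) and 0.36 for H2-DMa (SE 0.23, adjusted p = 0.999). H2-Aa gave 0.13 within slide 1 and 0.40 within slide 2, and H2-DMa gave 0.26 and 0.30. Without KO vehicle replicate 2 alone, H2-Aa gave 0.15 and H2-DMa 0.17. That array is the highest for both genes, so that a lower difference follows from leaving it out. Without KO vehicle replicate 1 H2-Aa gave 0.42 and H2-DMa 0.46, and without KO vehicle replicate 3 they gave 0.39 and 0.46. For Cd74 the averaged difference was 0.37 (SE 0.39).

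**Figure D2:**
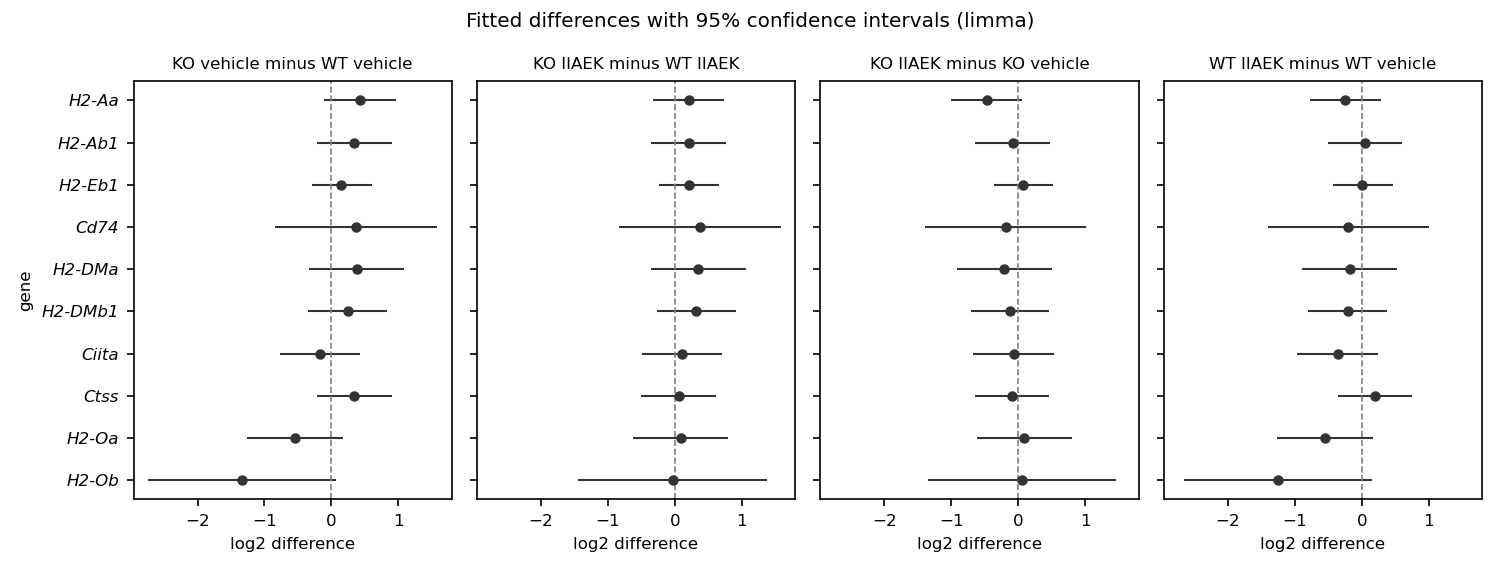
Log2 difference of each member in 4 comparisons (points) with its 95% confidence interval (lines) from the fit to all 12 arrays, and a dashed line at 0. Every interval includes 0. H2-Ob has the widest, from -2.74 to 0.07 for KO against WT under vehicle and from -2.66 to 0.16 for IIAEK against vehicle in WT.

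IIAEK against vehicle in KO mice gave no called member and no called feature (0% of 26107), and no member with an unadjusted p below 0.05, where 1.91% of features had one (498). Differences ranged from -0.47 to 0.09, with a median of -0.09 and 3 of 10 above 0, beside 49.2% of features. The median was 0.17 without KO vehicle replicate 2 and 0.04 without KO IIAEK replicate 1, and -0.22 and -0.21 without KO vehicle replicates 3 and 1, with -0.21 without KO IIAEK replicate 3. H2-Aa had the smallest p, with a log2 difference (IIAEK minus vehicle) of -0.47 (SE 0.24, 95% confidence interval -1.01 to 0.06, limma adjusted p = 1). With a slide block it was -0.44. It was -0.02 within slide 1, which holds 1 KO vehicle array, and -0.77 within slide 2, which holds 1 KO IIAEK array. Without KO vehicle replicates 1 and 3 it was -0.67 and -0.61, and without KO vehicle replicate 2 it was -0.13. KO vehicle replicate 2, in the group subtracted, is the highest array for H2-Aa and H2-DMa. A higher difference thus follows from leaving it out. H2-DMa differed by -0.21 (SE 0.32, limma adjusted p = 1), by -0.03 with the slide as a block, and by 0.18 without the same array. Every member overlapped between the groups, where 4.69% of features did not.

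IIAEK against vehicle in WT mice likewise gave no called member and no called feature (0% of 26107), and no member with an unadjusted p below 0.05, where 3.13% of features had one (817). The median was -0.21 and 3 of 10 members were above 0, beside 56.3% of features. The median was -0.04 without WT IIAEK replicate 2 and -0.11 without WT vehicle replicate 3. It was -0.24 and -0.30 without WT IIAEK replicates 1 and 3, and -0.21 and -0.27 without WT vehicle replicates 1 and 2. H2-Ob differed by -1.25 (SE 0.64, 95% confidence interval -2.66 to 0.16, limma adjusted p = 0.999) and H2-Oa by -0.55 (SE 0.33, adjusted p = 0.999). Both had the other sign without WT vehicle replicates 1 and 2, at 0.73 for H2-Ob and 0.26 for H2-Oa. Within slide 1, with 2 arrays against 2, H2-Ob was called at -2.21 (limma adjusted p = 0.014), where 257 of 26107 features were called. Within slide 2, with 1 array against 1, it was 0.66, and with the slide as a block it was -1.25. Without WT vehicle replicate 3 H2-Ob was called at -2.24 (limma adjusted p = 0.025), where 17 of 26107 features were called. Slide 1 lacks that array too, and it is the lowest for H2-Ob. A lower difference thus follows from its absence in both settings. H2-Oa gave -1.11 within slide 1, 0.58 within slide 2 and -0.55 with the slide as a block. WT IIAEK and WT vehicle are split alike over the slides, so a slide block cannot move either difference. Every member overlapped between the groups, where 9.28% of features did not. This comparison and that of KO with WT under vehicle share the WT vehicle arrays.

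The effect of IIAEK in KO minus that in WT was not called for any member or feature (0% of 26107). No member had an unadjusted p below 0.05, where 1.52% of features had one (398), and the median over members was 0.03, with -0.16 to 0.40 when each array was left out in turn. H2-Ob differed by 1.31 (SE 0.91, limma adjusted p = 1) and H2-Oa by 0.63 (SE 0.46, adjusted p = 1). H2-Ob gave 2.64 within slide 1, -0.84 within slide 2, 1.09 with the slide as a block and -0.67 without WT vehicle replicates 1 and 2. H2-Oa gave 1.23, -0.33, 0.62 and -0.17 under the same settings. Averaged over both genotypes, IIAEK against vehicle was called for no member and no feature (0%). The averaged difference was -0.36 for H2-Aa (SE 0.17, limma adjusted p = 1) and -0.60 for H2-Ob (SE 0.45, adjusted p = 1). H2-Aa gave -0.20 within slide 1 and -0.37 within slide 2, whereas H2-Ob gave -0.89 and 0.25. Without KO vehicle replicate 2 H2-Aa gave -0.19, and without KO vehicle replicates 1 and 3 it gave -0.46 and -0.43. A higher difference follows from leaving out KO vehicle replicate 2, the highest array for H2-Aa.

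The highest and the lowest array were the same for several members. Relative to each gene's own median over the 12 arrays, the median deviation of the 10 members was 0.73 in KO vehicle replicate 2, 0.35 in KO IIAEK replicate 3 and -0.36 in WT IIAEK replicate 2. In the other 9 arrays it lay between -0.10 and 0.06. KO vehicle replicate 2 was the highest array for 5 members, WT vehicle replicate 1 for 3 (Ciita, H2-Oa and H2-Ob), and WT IIAEK replicate 2 the lowest for 7. Across the 12 arrays, Pearson's r with the mean of H2-Aa, H2-Ab1, H2-Eb1 and Cd74 was 0.97 for H2-DMa and 0.95 for H2-DMb1, and without KO vehicle replicate 2 it was 0.93 and 0.88. It was 0.57 for Ciita, 0.17 for H2-Oa, -0.20 for H2-Ob and -0.29 for Ctss. Without that array it was 0.36, 0.34, -0.09 and -0.71 in the same order. Spearman's rho with the same mean over the 12 arrays was 0.89 for H2-DMa but 0.62 for H2-DMb1. For Ciita, H2-Oa, H2-Ob and Ctss rho was 0.40, 0.22, -0.34 and -0.43. Among the chains, H2-Aa correlated with H2-Ab1 at 0.67, with H2-Eb1 at 0.46 and with Cd74 at 0.45. H2-Oa and H2-Ob correlated with each other at 0.88. These correlations describe 12 tissue pieces that share each array's scaling and cell makeup, and no p is given for them.

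**Figure D3:**
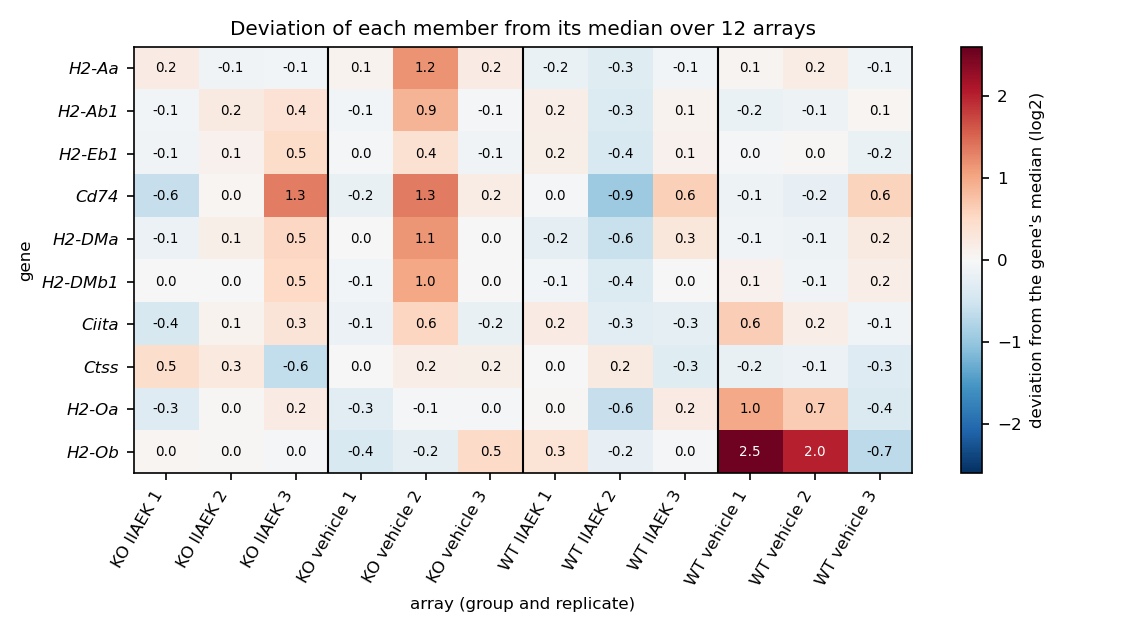
Deviation of each member (rows) from its own median over the 12 arrays (columns, by group and replicate), in log2 units, with red above and blue below the median. KO vehicle replicate 2 is red for the chains, Cd74, H2-DM and Ciita, and KO IIAEK replicate 3 is red for most of these. WT IIAEK replicate 2 is blue for 9 of 10 members. The deep red cells of H2-Ob lie in WT vehicle replicates 1 and 2, where H2-Oa is a paler red.

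Among named genes outside the 10, the 8 whose levels over the 12 arrays correlated most with the mean of H2-Aa, H2-Ab1, H2-Eb1 and Cd74 were Tnfaip2, Abi3, Xpc, Tgm2, Iffo1, Pld4, Elk3 and Phxr4. Tnfaip2, a gene induced by tumour necrosis factor, had r = 0.96 (0.92 without KO vehicle replicate 2, over 11 arrays) and rho = 0.86. Abi3, an actin regulator, had r = 0.93 with and without that array and rho = 0.94. Pld4, an endolysosomal nuclease of the phospholipase D family, had r = 0.91 (0.89 without it) and rho = 0.83. Tgm2, transglutaminase 2, had r = 0.91 (0.83 without it) and rho = 0.69. Tgm2 had levels of 2.12, 2.62 and 3.26 in KO IIAEK, 2.54, 3.64 and 2.71 in KO vehicle, 2.69, 2.15 and 2.58 in WT IIAEK, and 2.85, 2.65 and 2.88 in WT vehicle. Like Cd74 it was highest in KO vehicle replicate 2, then in KO IIAEK replicate 3. Such likeness follows from its choice by correlation with a mean that holds Cd74.

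Of the wider class II pathway, 16 genes were measured: the beta chain H2-Eb2, the X and Y box factors Rfx5, Rfxap, Rfxank, Creb1, Nfya, Nfyb and Nfyc, the endosomal enzymes Lgmn, Ctsl, Ctsb, Ctsd and Ifi30, the ubiquitin ligases Marchf1 and Marchf8, and Cd83. None was called in any comparison, and none had an unadjusted p below 0.05. For KO against WT under vehicle 8 of 16 were above 0, with a median of 0.02. Rfx5, the DNA-binding subunit of the RFX complex, differed there by 0.45 (SE 0.23, limma adjusted p = 0.993). H2-Eb2 had levels of -3.17, -3.34 and -4.83 in KO IIAEK, -4.34, -3.14 and -3.30 in KO vehicle, -3.29, -3.72 and -4.25 in WT IIAEK, and -0.49, -0.87 and -4.92 in WT vehicle. It thus had the pattern of H2-Ob, high in WT vehicle replicates 1 and 2 alone, and was well above background on 9 arrays. Its promoter in the RefSeq table also held the X and Y pair, in the letters set after the members' promoters had been read. No other promoter searched for this list held the pair, and that of H2-DMb2 did not either.

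The interferon-gamma list held 11 genes, from the cytokine, its receptor and signalling proteins to genes it induces, and none was called in any comparison. For KO against WT all 11 were above 0 under vehicle, with a median of 0.29 and 1 at an unadjusted p below 0.05, and 6 of 11 under IIAEK, with a median of 0.00 and 0 at that p. For IIAEK against vehicle 4 of 11 were above 0 in KO, with a median of -0.05, and 10 of 11 in WT, with a median of 0.18 and 2 at that p. Over all features 3.86% had such a p for KO against WT under vehicle, and 3.13% for IIAEK against vehicle in WT. The share of features above 0 was 54.6% for KO against WT under vehicle and 47.5% under IIAEK. For IIAEK against vehicle it was 49.2% in KO and 56.3% in WT. The WT comparison shares the WT vehicle arrays with that of genotype under vehicle. Cxcl9, a chemokine induced by interferon-gamma, had levels of 0.16, 0.02 and -0.10 in KO vehicle, against -0.67, -0.69 and -0.96 in WT vehicle, a difference of 0.80 (SE 0.27, limma adjusted p = 0.993). Its groups did not overlap there, as was the case for 14.4% of all features. The mean over the 11 genes was 1.75 in KO vehicle replicate 2, the array with the highest Cd74, and 1.27 in KO IIAEK replicate 3, where Cd74 was nearly as high. It was 1.66 in WT IIAEK replicate 2, where the chains were lowest, and 1.26 to 1.80 over all arrays. Over 10 class I presentation genes the mean was highest in KO vehicle replicate 2 at 4.71, beside 4.19 to 4.49 elsewhere, and 8 of 10 were above 0 for KO against WT under vehicle with none called. Of 6 costimulation genes none was called in any comparison.

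Levels of cell type markers are given beside the members, and their part in the results was not tested. Macrophage markers, over 10 of 10 genes, averaged 1.28 to 1.44 in KO IIAEK, 1.20 to 1.62 in KO vehicle, 1.13 to 1.45 in WT IIAEK and 1.09 to 1.39 in WT vehicle. The highest macrophage mean was that of KO vehicle replicate 2, the array highest in the mean of H2-Aa, H2-Ab1, H2-Eb1 and Cd74. That array was also highest for plasma cell markers (2.71) and costimulation genes (-1.61). KO IIAEK replicate 3, second in that class II mean, had a macrophage mean of 1.34, below the 1.45 of WT IIAEK replicate 1. Dendritic cell markers, over 8 of 10 genes, averaged 0.77 to 0.96 in KO IIAEK, 0.70 to 0.98 in KO vehicle, 0.71 to 0.87 in WT IIAEK and 0.32 to 1.04 in WT vehicle. B cell markers, over 8 of 10 genes, averaged -2.33 to -1.88 in KO IIAEK, -2.32 to -1.99 in KO vehicle, -2.43 to -1.45 in WT IIAEK and -2.41 to 0.78 in WT vehicle. Cr2, the complement receptor of B cells and follicular dendritic cells, lay between -3.27 and -1.70 on the KO and WT IIAEK arrays, against 2.12, 1.07 and -3.44 in WT vehicle. Ms4a1, which encodes the B cell antigen CD20, lay between -4.83 and -0.86 on the KO and WT IIAEK arrays, against 2.92, 1.84 and -4.50 in WT vehicle. Other B cell markers differed less. Pax5 lay between -3.17 and -2.15 on the KO and WT IIAEK arrays, against -2.21, -1.95 and -2.19 in WT vehicle. Cd22 lay between -0.78 and 0.02, against 0.13, 0.06 and -0.43. All 8 B cell markers were below 0 for KO against WT under vehicle, as H2-Oa and H2-Ob were. None of them was called, and 5 had an unadjusted p below 0.05, where 3.86% of features had one. The fit with the stomach and pancreas marker means as covariates gave -0.99 for H2-Ob and 0.30 for H2-Aa in that comparison.

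**Figure D4:**
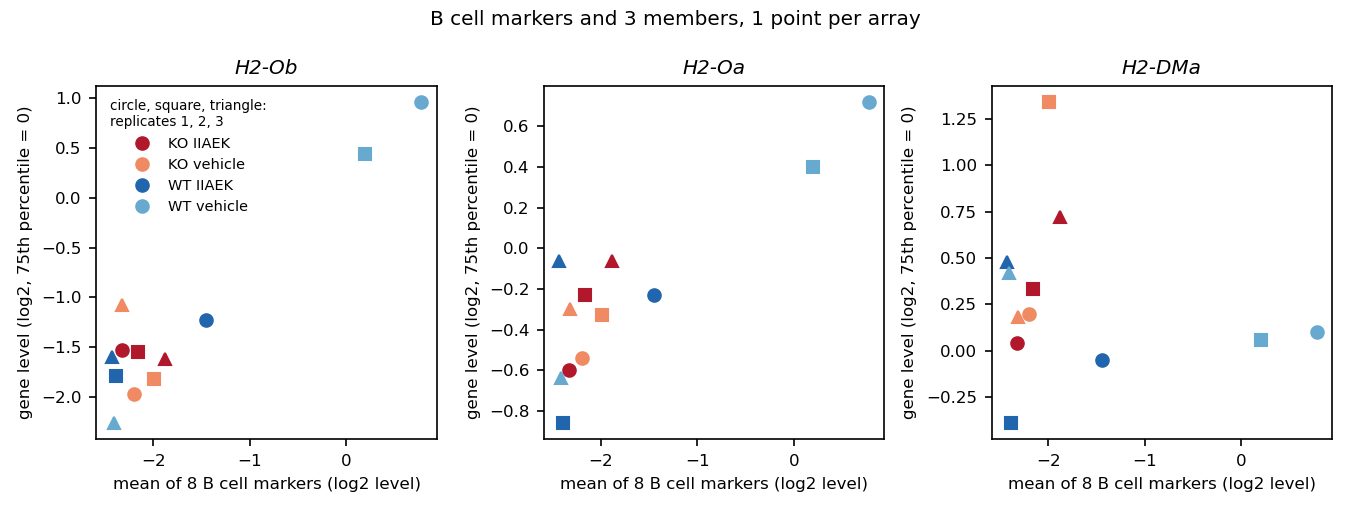
Levels of H2-Ob, H2-Oa and H2-DMa (vertical axes) against the mean level of 8 B cell markers (horizontal axes), both in log2 units, with 1 point per array, colours for groups and shapes for replicates. WT vehicle replicates 1 and 2, at 0.78 and 0.20 on the horizontal axis, have the highest H2-Ob and H2-Oa, whereas H2-DMa is 0.10 and 0.06 there and highest in KO vehicle replicate 2.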

How the data were processed

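The one-colour scanner output names Feature Extraction 10.7.3.1 and build mm9, per the file headers; the deposited processed intensity is background-subtracted and not scaled between arrays. The authors' deposited value table holds log2 values of unstated making; its direction and log2 scale were settled from the scanner files (correlation of at least 0.999995 with 75th-percentile-shifted, probe-centred values on each array, column medians from -0.09 to 0.13). From the deposited intensity, control and outlier-flagged spots were left out, log2 was taken and spots of a probe were averaged. The 75th percentile of each array's probe means (195.3 to 465.8 as intensity) was then subtracted. Accessions were named through RefSeq GRCm38.p6 (32978 of 56583 probes). A probe was kept if it was well above background on every array of 1 or more groups, and the probe with the highest mean stood for a gene.

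In limma 3.58.1 (R 4.3.3), lmFit estimated the 4 group means from the 12 arrays and eBayes used an intensity trend, with 7 two-sided contrasts and Benjamini-Hochberg adjustment over 26107 features, called under 0.05. The script was tested on simulated data. The design gives n = 3 per group, read here as 3 mice; this number limits the precision. Alternatives were other background corrections, scaling, filters, probe rules, slide or replicate number as a block, tissue marker covariates, the value table and leaving out arrays. Named members were the 2 with the smallest p per contrast, and wider-list genes by the same rule; H2-Eb2, Cxcl9, Cr2 and Ms4a1 levels and members given only for levels or spread, such as Cd74, Ctss and Ciita, were shown with their values known. The members, lists and tests were chosen with earlier results of these data known.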

Additional observations from a re-analysis of the deposited data

How the results depend on the processing

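No member was called under any of the 25 alternative settings, in any contrast, except H2-Ob. For IIAEK in WT the number of members called was 1 within slide 1, and 0 to 1 when each array was left out in turn; for KO under vehicle it was also 0 to 1 (H2-Ob without WT vehicle replicate 3). Within slide 2, where KO IIAEK, WT IIAEK and WT vehicle have 1 array each, the sign was the opposite for H2-Ob (0.66 for IIAEK in WT, 0.82 for KO under vehicle, -0.84 for the difference between genotypes, 0.25 for averaged IIAEK) and for H2-Oa (0.58 for IIAEK in WT, -0.33 for the difference). Leaving out WT vehicle replicates 1 and 2, or KO vehicle replicate 2 and KO IIAEK replicate 3, was added after seeing the data. Without the first pair, which is the highest for both genes, it was so too: H2-Ob gave 0.73, 0.64, -0.67 and 0.39 in that order, and H2-Oa 0.26 and -0.17. Within slide 1 H2-Aa for KO under vehicle was -0.05. H2-DMa for IIAEK in KO ran from -0.40 to 0.18 when each array was left out. The cause was not tested. For members not named in a contrast, 158 of 1400 values changed sign and 0 were called. Many of these values could not change sign, for example where the array left out was in neither group compared. Smaller groups within slides and left-out arrays also moved the count of features called: for IIAEK in WT 257 within slide 1 and 17 without WT vehicle replicate 3, against 0; for KO under vehicle 4 and 83 within slides 1 and 2, and 2 to 18 when an array was left out (18 without WT vehicle replicate 3), against 2; for IIAEK in KO 58 and 271 within slides 1 and 2, against 0; for averaged IIAEK 251 and 58, against 0; for averaged KO 12 and 51, against 5, with 2 to 10 when an array was left out; for KO under IIAEK 8 and 14, against 2, with 5 under tissue covariates, 2 to 4 when an array was left out and 4 without KO vehicle replicate 2 and KO IIAEK replicate 3; for the difference 36 within slide 2 and 1 without WT vehicle replicate 3, against 0. Averaged KO called 3 under normexp, 2 without WT vehicle replicates 1 and 2, 8 with the slide as a block, 8 without the intensity trend and 8 on the authors' values, where the fit used no trend. Same-numbered arrays of different groups correlated from -0.25 to 0.70 (median 0.14 over 18 pairs). Different-numbered ones correlated from -0.72 to 0.65 (median -0.13 over 36 pairs), so same-numbered arrays were more alike in the median. All replicates 1 are on slide 1 and all replicates 3 on slide 2, so these correlations cannot separate number from slide. The numbers were not taken to pair the mice, and whether they do was not tested. A replicate block cannot move a difference here, since every group has each number. With it H2-Ob for KO under vehicle was -1.34 (limma adjusted p = 0.848) and no member was called.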
